A study of Danio rerio with 8 samples.

Results

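The miR-181 family on this chip was represented by dre-miR-181a, dre-miR-181b and dre-miR-181c, chosen by probe name as the mature forms without a star. They were 3 of the 248 zebrafish miRNA probes, and all 3 passed the filter on low signals that left 187 miRNAs for testing. Total RNA of whole zebrafish (Danio rerio) embryos at 72 hpf, hours post fertilization, was labelled with Cy5 and hybridized to single-colour arrays. MC-RR-treated embryos, which had received microcystin-RR by microinjection into the yolk at an early cleavage stage, were on 4 arrays, and control embryos, which had received saline in the same way, were on the other 4. Microcystin-RR is a cyclic peptide toxin of cyanobacteria that inhibits serine/threonine protein phosphatases. The labels call the arrays of a group biological replicates, and the series design names a pairing that the methods do not. The number of embryos behind each array and the strain used for the arrays are not given in the sources used here. A whole embryo mixes many cell types, so fewer cells of a type and less RNA per cell cannot be told apart.

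MicroRNAs are short RNAs that lower the output of messenger RNAs by pairing mainly through their seed, the stretch near the 5′ end. Members of a family share the seed and can bind many of the same messengers, whereas the bases outside the seed tell the members apart. The miR-181 family is conserved across vertebrates. In mouse it is known for setting the sensitivity of developing T cells to antigen, in medaka for the growth of retinal axons, and in zebrafish larvae it is found in the brain and the eye.

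The mature sequences which the probes were built to detect are shown because the members differed in signal on 1 array although their sequences are nearly the same. They are written 5′ to 3′ as the deposited chip layout lists them, with the seed, bases 2 to 8, in capitals.
dre-miR-181a: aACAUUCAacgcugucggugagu
dre-miR-181b: aACAUUCAuugcugucgguggg
dre-miR-181c: cACAUUCAuugcugucgguggg
The seed ACAUUCA was carried by these 3 and by no other of the 248 zebrafish probes. Positions are counted from 1 at the 5′ end, with the base of the first-named miRNA before the position. Between dre-miR-181b and dre-miR-181c the 22 bases differed at 1 position, A1C, just outside the seed. Between dre-miR-181b and dre-miR-181a the differences were U9A, U10C and G21A, and dre-miR-181a was 1 base longer, with 23 bases. The share of G and C was 47.8% in dre-miR-181a, 50% in dre-miR-181b and 54.5% in dre-miR-181c, and over the tested miRNAs it ran between 27.3% and 78.3%. In the RefSeq gene table of the assembly GRCz12tu the family has 10 hairpin loci, 5 named mir181a, 3 mir181b, 1 mir181c and 1 mir181d. They lie in 5 neighbouring pairs, each joining a mir181a locus with a mir181b, mir181c or mir181d locus and with 0 annotated genes between. Several loci can thus give the same mature RNA, and the array does not tell these loci apart. Whether a probe also detected the RNA of another member was not tested.

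Each probe was spotted 10 times on each array. The median intensity over the zebrafish probes ran between 106 and 384 on the MC-RR arrays and between 199 and 375 on the control arrays, in the linear units of the scanner. The median of the blank spots was 45.3 to 166 on the MC-RR arrays and 58.1 to 179 on the control arrays. MC-RR replicate 2 was the dimmest array over the zebrafish probes, and control replicate 4 had the brightest blank spots, with a 95th percentile of 512. On control replicate 4, 71 of the 248 zebrafish probes exceeded that percentile, the fewest of all arrays.

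The mean spot intensity of dre-miR-181a was 1910, 304, 2437 and 970 on MC-RR arrays 1 to 4, against 2174, 3859, 3769 and 1031 on control arrays 1 to 4. MC-RR replicate 2 was the lowest array by a wide margin, and the replicate 4 arrays of both groups were alike. For dre-miR-181b the intensity was 3305, 52.8, 3712 and 1419 with MC-RR, against 3080, 4067, 5755 and 1158 in controls. On MC-RR replicate 2 it was at the level of the blank spots, while on the other 7 arrays it was above them. It was 2.26 times their 95th percentile on control replicate 4 and at least 11.8 times on the rest. For dre-miR-181c the intensity was 3534, 1246, 3966 and 1571 with MC-RR, against 3436, 4274, 6528 and 1464 in controls. Here MC-RR replicate 2 was again the lowest array of all, but well above background.

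Within an array, the spots of each member varied most on control replicate 4. There the 10 spots of dre-miR-181a ran between 618 and 1340. Over the 8 arrays the coefficient of variation of a member's spots was between 4.69% and 19.7% for dre-miR-181a. It was between 6.09% and 14.0% for dre-miR-181b and between 6.78% and 13.0% for dre-miR-181c. On MC-RR replicate 2 the 10 spots of dre-miR-181b lay between 47.1 and 58.9, and the 206 blank spots lay between 37.98 and 59.32. Of these 10 spots, 1 exceeded the 95th percentile of the blanks, 55.8, so that dre-miR-181b was not above background on this array. dre-miR-181a and dre-miR-181c exceeded that percentile on all 8 arrays and dre-miR-181b on 7.

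**Figure D1:**
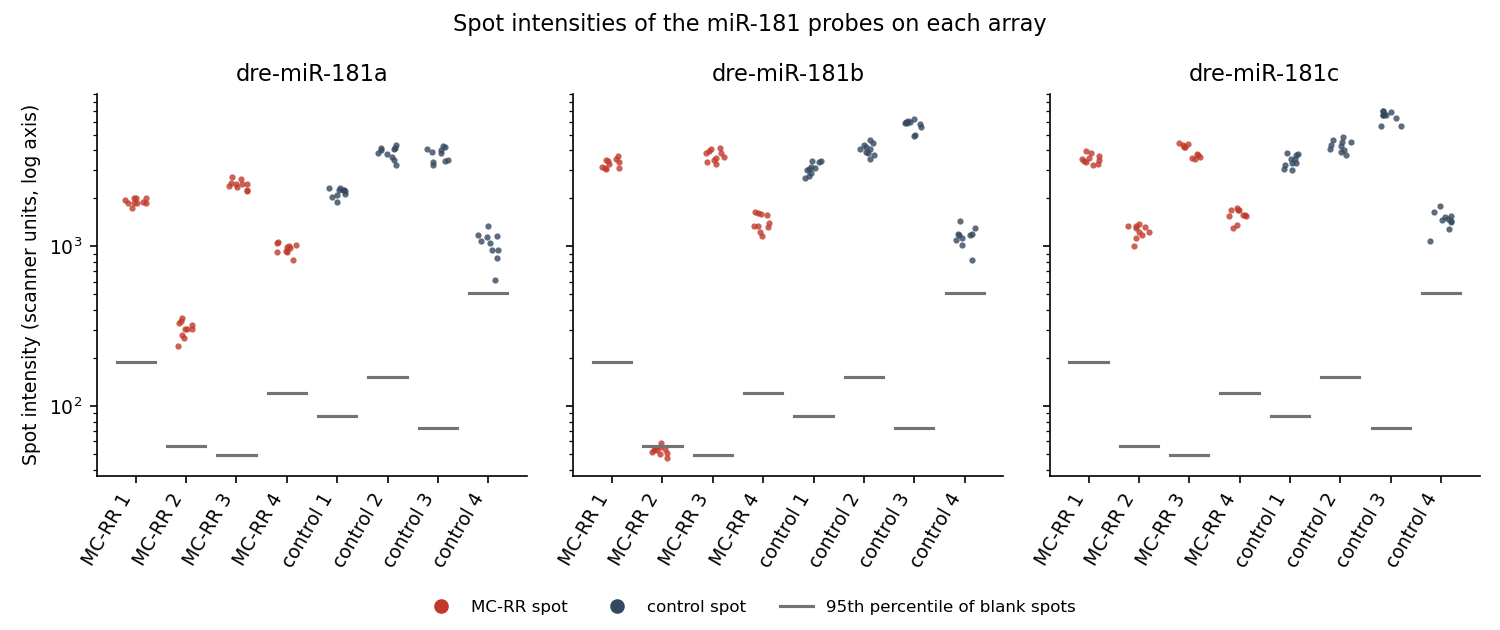
Intensity of each of the 10 spots of the 3 miR-181 probes (vertical log axis, scanner units) on the 4 MC-RR and 4 control arrays (horizontal axis, points spread sideways for legibility), with the 95th percentile of the blank spots as a grey bar. The dre-miR-181b spots of MC-RR replicate 2 lie at the blank level, between 47.1 and 58.9, whereas those of dre-miR-181c on the same array average 1246.

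A copy of a member's probe gave a check on how well spots repeat within a chip. A customer-defined probe named miR-181a, with the same sequence as dre-miR-181a, gave between 94.6% and 105% of its intensity on every array. On MC-RR replicate 2 it read 310, beside 304 for dre-miR-181a. The low signal of dre-miR-181a on this array was thus found by both sets of spots. The chip held no such copy for dre-miR-181b. All 10 of its spots had a dre-miR-181c spot in the next row of the same column, and these neighbours were bright. They were spread over 4 rows and 3 columns of the chip. All spots of an array met the same labelled RNA, and whether the chip or the labelling lowered these signals was not tested.

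After background correction, log2 transformation and normalization between arrays, the signal of dre-miR-181a was 10.35, 8.86, 10.62 and 9.98 on MC-RR arrays 1 to 4, against 10.96, 11.57, 11.15 and 10.59 on control arrays 1 to 4. The control array of replicate 4 fell within the MC-RR range, and the other 3 control arrays were above every MC-RR array. The log2 signal of dre-miR-181b was 11.14, 6.67, 11.21 and 10.51 with MC-RR, against 11.45, 11.66, 11.76 and 10.78 in controls. Apart from replicate 2, the MC-RR arrays lay within 0.70 of each other, and 3 control arrays were above them all. The log2 signal of dre-miR-181c was 11.13, 10.79, 11.28 and 10.60 with MC-RR, against 11.53, 11.82, 11.93 and 11.13 in controls. Again 3 of 4 control arrays were above every MC-RR array, and the control array of replicate 4 overlapped with them. For 0 of the 3 members the groups were fully separate with MC-RR lower, as they were for 1.07% of the tested miRNAs.

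**Figure D2:**
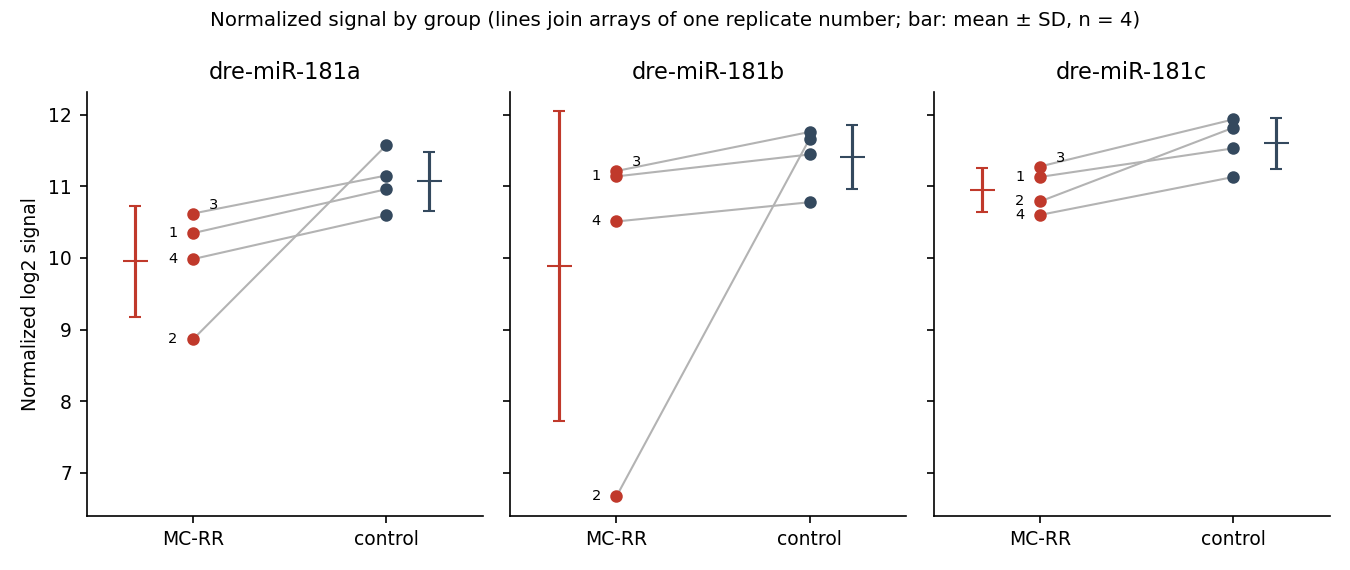
Normalized log2 signal (vertical axis) of each miR-181 member on the MC-RR arrays (left, numbered by replicate) and the control arrays (right), with grey lines joining arrays of one replicate number and bars giving the mean ± SD of 4 arrays. Every line is lower at its MC-RR end, and that of replicate 2 is the steepest, with dre-miR-181b at 6.67 on the MC-RR array and 11.66 on the control array.

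All 3 members had a lower mean with MC-RR. dre-miR-181a averaged 9.95 ± 0.77 with MC-RR and 11.07 ± 0.41 in controls (SD, n = 4 each), a log2 fold change of -1.12 with a standard error of 0.39 and a 95% confidence interval between -2.01 and -0.22. dre-miR-181c averaged 10.95 ± 0.31 with MC-RR and 11.60 ± 0.36 in controls, with a log2 fold change of -0.65, a standard error of 0.23 and an interval between -1.19 and -0.12. dre-miR-181b averaged 9.88 ± 2.16 with MC-RR and 11.41 ± 0.44 in controls. At -1.53 its log2 fold change had a standard error of 0.95 and an interval, between -3.72 and 0.66, that included no change. This value includes MC-RR replicate 2, on which dre-miR-181b was not above background, and its size there depends on the background correction and the offset. In linear terms the MC-RR signal was 0.462 of the control signal for dre-miR-181a, 0.347 for dre-miR-181b and 0.636 for dre-miR-181c.

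In limma, the unadjusted p was 0.0209 for dre-miR-181a, 0.147 for dre-miR-181b and 0.0220 for dre-miR-181c. Thus 2 of 3 members were lower at an unadjusted p under 0.05, as were 8 of the 187 tested miRNAs, or 4.28%. The adjusted p in limma was 0.427, 0.774 and 0.427 in the same order, and no member passed the threshold of 0.05 after adjustment, nor did any other tested miRNA, a share of 0%, although 16 had an unadjusted p under 0.05. Two-sided exact permutation tests over the 8 arrays gave p = 0.0571 for dre-miR-181a, 0.114 for dre-miR-181b and 0.0857 for dre-miR-181c. They made no use of the replicate numbers, and relabelling 4 arrays against 4 in this way allows no p below 0.0286. The median log2 fold change was -1.12 over the members and -0.06 over all tested miRNAs, of which 53.5% were lower with MC-RR. The unadjusted limma p of dre-miR-181a was 0.0574 without control replicate 2, with a log2 fold change of -0.95. That of dre-miR-181c was above 0.05 without MC-RR replicate 2 (-0.60), MC-RR replicate 4 (-0.54), control replicate 2 (-0.58) or control replicate 3 (-0.54), and with median scaling of the arrays, where its log2 fold change was -0.38.

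Arrays of the same replicate number were also set against each other. The log2 difference of MC-RR minus control was -0.61, -2.71, -0.53 and -0.61 for dre-miR-181a in replicates 1 to 4. For dre-miR-181b it was -0.31, -4.99, -0.55 and -0.27, and for dre-miR-181c -0.40, -1.03, -0.66 and -0.53. On this normalized scale each member was lower in 4 of 4 pairs, as were 39 of the tested miRNAs, or 20.9%. Before normalization, dre-miR-181b and dre-miR-181c had a higher mean intensity with MC-RR in replicates 1 and 4. For dre-miR-181b it was 3305 against 3080 and 1419 against 1158, and for dre-miR-181c 3534 against 3436 and 1571 against 1464. The direction in these pairs thus depends on the normalization. After it, replicates 1, 3 and 4 differed by similar amounts in all 3 members, and replicate 2 by more. When limma was given the replicate number as a block, the unadjusted p was 0.0471 for dre-miR-181a, 0.154 for dre-miR-181b and 0.00517 for dre-miR-181c. The standard error was 0.42 for dre-miR-181a, 0.91 for dre-miR-181b and 0.14 for dre-miR-181c. The block left 2 of 3 members lower at an unadjusted p under 0.05, against 10.2% of the tested miRNAs, and the adjusted p were 0.282, 0.479 and 0.170 in limma.

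The deposited normalized table, in which the authors had subtracted background and applied their own normalization, gave the same order within pairs. There, dre-miR-181a had 1357, 540, 1596 and 984 in the MC-RR samples 1 to 4, against 2030, 3620, 2397 and 1506 in the controls. The MC-RR value was 66.8%, 66.6% and 65.3% of the control value in replicates 1, 3 and 4, and 14.9% in replicate 2. dre-miR-181b had 2243, 38.9, 2406 and 1364 with MC-RR, against 2688, 3841, 3642 and 1600 in controls. Its share of the control value was 83.4%, 66.1% and 85.3% in replicates 1, 3 and 4, and 1.01% in replicate 2, where the scanner signal was not above background. dre-miR-181c had 2446, 2281, 2676 and 1609 with MC-RR, against 3055, 4344, 4414 and 2283 in controls. Its share was between 52.5% and 80.0% in all 4 replicates, and only for this member was replicate 2 near the others.

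MC-RR replicate 2 thus weighed on the members to unequal degrees. Its normalized log2 signal minus the mean of the other 3 MC-RR arrays was -4.28 for dre-miR-181b, -1.45 for dre-miR-181a and -0.21 for dre-miR-181c. For dre-miR-181b, not above background on that array, the size depends on the background correction and the normalization. It was between -8.30 and -3.94 over the alternatives. Among the 187 tested miRNAs, dre-miR-181a ranked 18 and dre-miR-181c 71 from the lowest, whereas the place of dre-miR-181b among the probes near background has no measured order. The median over the tested miRNAs was -0.07, and 24 of them, or 12.8%, fell by more than 1 on this array. The same measure for control replicate 2 was 0.34 for dre-miR-181b, 0.67 for dre-miR-181a and 0.29 for dre-miR-181c, and it was below -1 for 18 tested miRNAs. Among the other miRNAs, the most negative values on MC-RR replicate 2 were those of dre-miR-203a (-5.59), a skin miRNA, dre-miR-454b (-5.21) and dre-miR-1 (-4.80), a muscle miRNA. The mean intensity on that array was 62.6 for dre-miR-203a, 41.9 for dre-miR-454b and 106 for dre-miR-1, so that dre-miR-454b was not above background either.

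**Figure D3:**
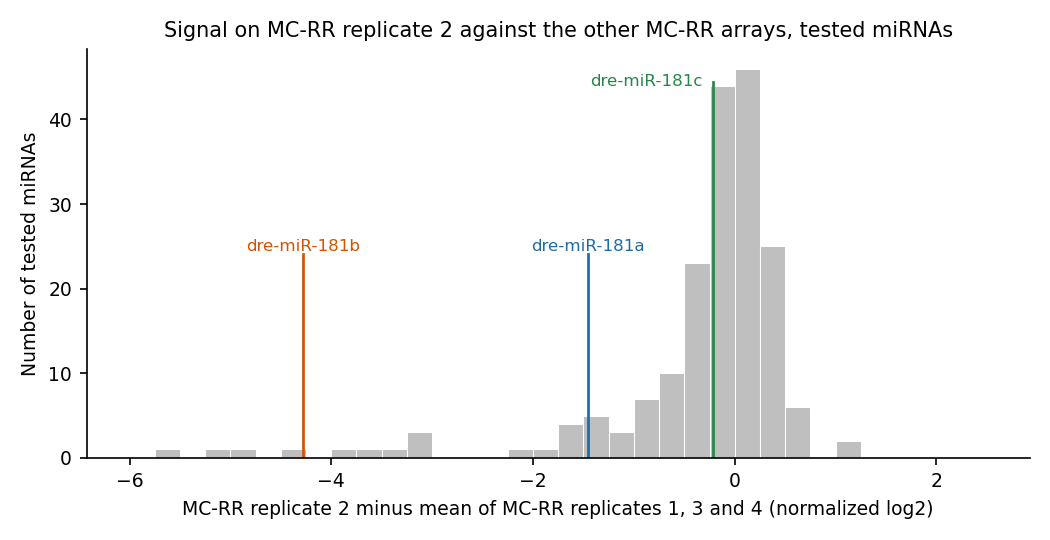
Histogram of the tested miRNAs (vertical axis, number of miRNAs) by the normalized log2 signal on MC-RR replicate 2 minus the mean of the other 3 MC-RR arrays (horizontal axis), with the miR-181 members marked. dre-miR-181b lies far in the lower tail at -4.28, dre-miR-181a at -1.45, and dre-miR-181c at -0.21 within the bulk of the miRNAs.

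Without MC-RR replicate 2 the members were closer to each other. The log2 fold change was then -0.75 for dre-miR-181a (standard error 0.27, limma p 0.0236), -0.46 for dre-miR-181b (0.29, p 0.158) and -0.60 for dre-miR-181c (0.26, p 0.0501). The adjusted p in limma were 0.465, 0.979 and 0.586. By the log2 fold change dre-miR-181b was then 13th from the lowest of the tested miRNAs. In linear terms the MC-RR signal was 0.594, 0.728 and 0.660 of the control signal for dre-miR-181a, dre-miR-181b and dre-miR-181c. The fold change of dre-miR-181b was therefore set mainly by 1 array, and that of dre-miR-181c was not. Over these 7 arrays the median log2 fold change was -0.60 for the members and -0.00 for all tested miRNAs.

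**Figure D4:**
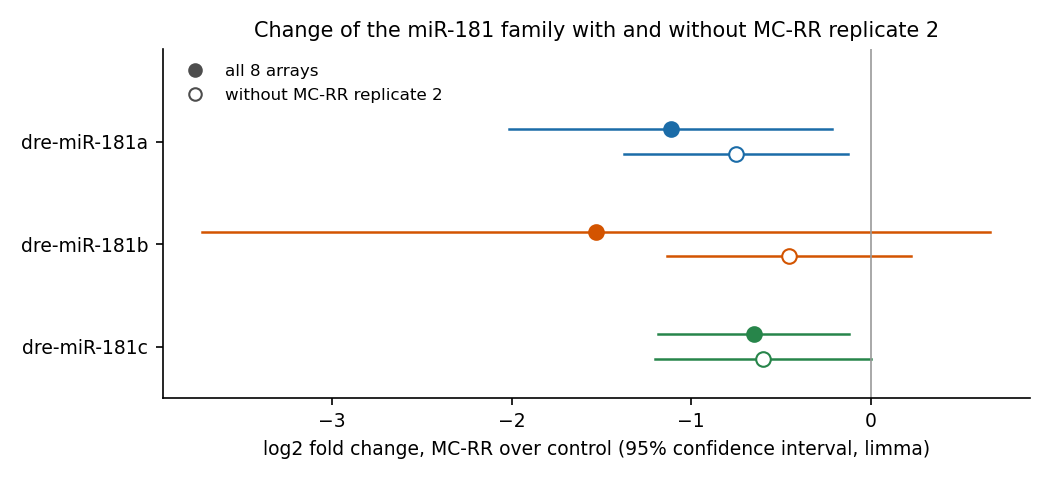
For each miR-181 member, the log2 fold change between MC-RR and control (horizontal axis, below 0 where MC-RR is lower), from all 8 arrays (filled circles) and without MC-RR replicate 2 (open circles), with 95% confidence intervals from limma as lines. The estimate for dre-miR-181b is -1.53 with all arrays and -0.46 without that array, and its interval includes 0 in both. That of dre-miR-181c is at -0.65 and -0.60, and its interval includes 0 only without that array.

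The members were also compared with each other within each array, on the normalized values. The normalized log2 signal of dre-miR-181b minus that of dre-miR-181c was 0.01, -4.12, -0.06 and -0.09 on MC-RR arrays 1 to 4, against -0.08, -0.15, -0.17 and -0.35 on control arrays 1 to 4. The 7 arrays other than MC-RR replicate 2 were within a narrow band. In the deposited table, dre-miR-181b was 91.7%, 1.70%, 89.9% and 84.8% of dre-miR-181c with MC-RR, against 88.0%, 88.4%, 82.5% and 70.1% in controls. These are differences between probes and are read only as unequal change from array to array, not as amounts of the RNAs. Among the tested miRNAs there were 45 pairs whose sequences differ at 1 base over their shared length from the 5′ end. Their lengths were at most 2 bases apart. The gap of such a pair on MC-RR replicate 2 departed from its median on the other 7 arrays by a median of 0.19, regardless of sign, and by more than 1 in 10 pairs. For dre-miR-181b and dre-miR-181c the departure was -4.03, of a size that depends on the background correction since dre-miR-181b was not above background there. For dre-miR-203a and dre-miR-203b, which differ by U11C, it was -5.82. On MC-RR replicate 2 dre-miR-203a averaged 62.6, close to the blank percentile of 55.8, where the offset compresses differences. The dre-miR-181b and dre-miR-181c pair was the only one of the 45 that differs at position 1.

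**Figure D5:**
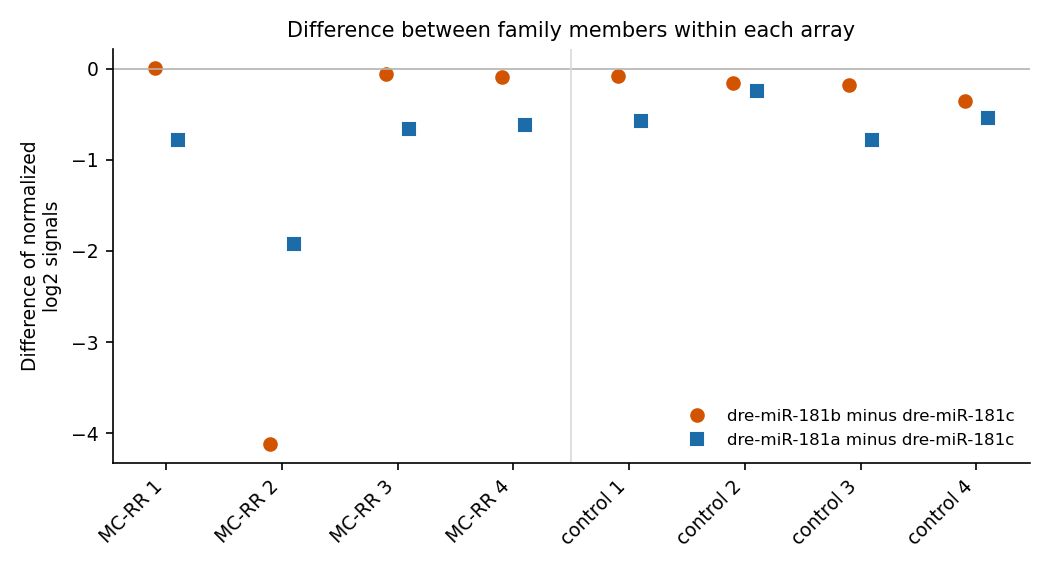
Difference of the normalized log2 signals of dre-miR-181b and dre-miR-181c (circles) and of dre-miR-181a and dre-miR-181c (squares) within each array (vertical axis), for the 4 MC-RR arrays on the left and the 4 control arrays on the right. MC-RR replicate 2 stands apart in both, with dre-miR-181b at -4.12 relative to dre-miR-181c, whereas the other 7 arrays lie between -0.35 and 0.01 for that pair.

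Whether the members responded unequally to MC-RR was tested over the arrays by exact permutation, two-sided, for 3 pairs of members, with p unadjusted. These permutations made no use of the replicate numbers. The log2 fold change of dre-miR-181b minus that of dre-miR-181c was -0.87, with a standard error of 1.02 (exact permutation p = 0.971). It differed from that of dre-miR-181a by -0.41, with a standard error of 0.72 (exact permutation p = 0.943). The value of MC-RR replicate 2, with dre-miR-181b at background, dominates both differences under every relabelling of the arrays. Neither p can therefore show whether the response was unequal. The difference of dre-miR-181a and dre-miR-181c was -0.46, with a standard error of 0.33 (exact permutation p = 0.143). An exact test that flipped the signs of the differences within replicate numbers gave p = 0.375 here. For both differences with dre-miR-181b that test gave a p of at least 0.875. With so few replicate numbers, flipping signs cannot give a p under 0.05, whatever the values. The p of the sign-flip test therefore cannot show whether the response was unequal. Without MC-RR replicate 2 the difference of dre-miR-181a and dre-miR-181c was -0.15, with a standard error of 0.12 (exact permutation p = 0.314), and the sign turned for both pairs with dre-miR-181b. These differences were then 0.14 from dre-miR-181c, with a standard error of 0.064 (exact permutation p = 0.0857), and 0.29 from dre-miR-181a, with a standard error of 0.15 (exact permutation p = 0.2). Without that array the exact permutation test allows no p below 0.0286. An unequal response of the members was not detectable with these arrays, which does not show that they responded alike.

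The passenger strand of dre-miR-181a was also on the chip. dre-miR-181a* has the sequence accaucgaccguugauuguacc and does not carry the family seed. Its mean intensity was 266, 44.6, 160 and 173 on MC-RR arrays 1 to 4, against 209, 155, 208 and 259 on control arrays 1 to 4, and it exceeded the blank percentile on 6 of 8 arrays. Like dre-miR-181a it was lowest on MC-RR replicate 2. Relative to control it was at -0.48 on the log2 scale, with a standard error of 0.36 (limma p 0.220, adjusted 0.857). Its normalized signal was lower in 4 of 4 pairs, as was that of 20.9% of the tested miRNAs. The pairs of replicates 2 and 4 each held an array on which its intensity was below the blank percentile. These were MC-RR replicate 2 and control replicate 4, the latter with 259 against a percentile of 512. With the replicate block limma gave a p of 0.0147, or 0.184 after adjustment. Without MC-RR replicate 2, where its intensity was below the blank percentile, the value for dre-miR-181a* was -0.25 (limma p 0.484). A customer-defined copy of this probe gave between 91.3% and 105% of its intensity.

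Across the 8 arrays, dre-miR-181a and dre-miR-181b had a Pearson r of 0.91, dre-miR-181a and dre-miR-181c of 0.84, and dre-miR-181b and dre-miR-181c of 0.63. Without MC-RR replicate 2 these were 0.88, 0.94 and 0.97 over 7 arrays. The correlations are descriptions, since all points share the arrays, their brightness and the normalization. Of the 184 other tested miRNAs, those most like the mean of the members over 8 arrays were dre-miR-724 (r = 0.98), dre-miR-96 (0.89), a miRNA of sensory cells, dre-miR-140 (0.89), a cartilage miRNA, dre-miR-205 (0.86), of epithelia, and dre-miR-20a (0.86). Without MC-RR replicate 2, r was 0.88 for dre-miR-724 and 0.92 for dre-miR-96, but 0.50 for dre-miR-140, 0.05 for dre-miR-205 and 0.54 for dre-miR-20a. The likeness to the last 3 thus rested largely on that array. There the mean of the members included dre-miR-181b, which was not above background. Over the 7 arrays the highest r was that of dre-miR-216a, 0.96, while dre-miR-96 ranked 6 and dre-miR-724 ranked 12.

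miRNAs that mark tissues of the embryo were set beside the family, from short lists. Of 7 brain miRNAs tested, 0 passed an unadjusted p under 0.05 in limma, and their median log2 fold change was -0.47, or -0.35 without MC-RR replicate 2. Of 5 eye and sensory miRNAs, dre-miR-183 (-0.52) and dre-miR-96 (-0.56) were lower and dre-miR-182 (0.41) was higher at that threshold, with a median of -0.16. Among the lists of 5 muscle, 3 skin, 3 blood and lymphoid and 1 liver miRNA tested, 0 passed in either direction. Over all 187 tested miRNAs, 16 passed that threshold. The muscle and skin medians were -0.59 and -0.65 with all arrays and -0.24 and 0.00 without MC-RR replicate 2. The blood and lymphoid median was 0.23, or 0.21 without that array, and the value of the liver miRNA was -0.10, or -0.12. On that array, 12.8% of the tested miRNAs fell by more than 1 relative to the other MC-RR arrays. In the lists it was 3 of 5 muscle, 2 of 3 skin and 2 of 7 brain miRNAs. It was also 1 of 3 blood and lymphoid and 0 of 5 eye and sensory miRNAs. The listed miRNAs that fell moved on the same array as dre-miR-181a and dre-miR-181b, and their part in the family's values was not tested.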

How the data were processed

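Scanner output of 8 arrays was analysed, as deposited by the authors: linear mean spot intensity without background subtraction or normalization, digitized with Array-Pro. A second deposited table holds linear intensity after the authors' background subtraction and LOWESS normalization. Within each array it ranked the probes nearly as the scanner output did (Spearman's rho at least 0.9986). In R 4.3.3 with limma 3.58.1, the normexp model (offset 50) was applied to the foreground intensities, controls and blanks included. The log2 values of a probe's 10 spots were averaged, followed by cyclic loess normalization across the arrays on the 248 zebrafish probes. The offset compresses differences near background. Testing was limited to the 187 probes whose mean was above the blank spots' 95th percentile on 4 or more of the 8 arrays. The groups were compared with lmFit and eBayes, two-sided, with Benjamini-Hochberg adjustment over all 187, and single values by exact permutation. The number of arrays limits the precision.

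The methods name no pairing, but the series design does. Deviations from the group means of same-numbered arrays correlated at 0.58, 0.29, 0.53 and 0.78 over the tested miRNAs for replicates 1 to 4, so blocked values are given. Named were the members, other miR-181 probes, the 5 miRNAs most like the members' mean, the 3 lowest on MC-RR replicate 2 and listed tissue miRNAs on which a count turns. dre-miR-216a, the most like the members over 7 arrays, was named after its values were seen. The members and lists were chosen with earlier results of these data known. The alternatives covered normalization, background correction, detection filter, spot summary, the deposited table, the block, the methods' t-test, array weights and each array left out. The limma fit without a block was tested on simulated data with known changes, and the other steps were not tested in this way. No slide or scan batch is given in the sources used here. No genome positions are given since no build is named with the deposited data.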

Additional observations from a re-analysis of the deposited data

Results flagged for a closer look

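In groups of 4 arrays, a value was singled out where its gap to the nearest other value took up more of the group's range than Dixon's 95% limit, which chance exceeds in about 1 of 20 groups. All 4 such values in the family were on MC-RR replicate 2. They share that array and, in part, the same probe, so they do not count as separate findings. The normalized log2 signal of dre-miR-181b there was 6.67, with a Dixon ratio of 0.845, and the probe was not above background, so that the size of this value and of its differences depends on the background correction. The difference of dre-miR-181b minus dre-miR-181c was -4.12 (ratio 0.976), that of dre-miR-181b minus dre-miR-181a was -2.19 (0.910), and that of dre-miR-181a minus dre-miR-181c was -1.93 (0.872).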

How the results depend on the processing

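The log2 fold change was below 0 for each member under every alternative that gave a value (23 for dre-miR-181a, 22 for dre-miR-181b, 23 for dre-miR-181c), and the lowest adjusted limma p over them was 0.0677, 0.158 and 0.109 in that order. For dre-miR-181b no value was had where all 8 arrays had to exceed the blank percentile. An unadjusted p under 0.05 was lost for dre-miR-181a without normalization (-1.13) and without control replicate 2 (-0.95). It was also lost in the paired form of the methods' t-test, a replicate block (-1.12). Over the fits that each lack 1 array its log2 fold change was between -1.34 and -0.75. With the replicate block without number 2 in either group, the setting of the adjusted p of 0.0677, the change was -0.58. For dre-miR-181c it was lost with quantile normalization (-0.56), median scaling (-0.38), no normalization (-0.59), plain background subtraction (-0.63), the deposited table (-0.62) and renormalization of the 7 arrays other than MC-RR replicate 2 (-0.59), which was chosen after seeing the data. With each array left out its log2 fold change was between -0.81 and -0.54. The threshold was also lost without MC-RR replicate 2 or 4 and without control replicate 2 or 3. dre-miR-181b passed the unadjusted threshold only with the replicate block without number 2 in either group (-0.37), its change was -2.60 with plain subtraction and -1.93 on the deposited table, and the block changed no other member's call in limma.

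The count of members at that threshold, 2, was 1 with quantile normalization, median scaling, plain subtraction, the deposited table, the paired t-test of the methods and the renormalized 7 arrays, 0 without normalization, 3 with the block without number 2, and between 0 and 2 with each array left out. The count of tested miRNAs, 16 of 187, was 12 with quantile normalization, 11 with median scaling, 10 with plain subtraction and 12 on the deposited table. It was 3 without normalization, 15 on the renormalized 7 arrays and between 7 and 18 with each array left out. With the block it was 30, with the block without number 2 it was 42, and in the paired t-test 29. After adjustment, 1 was called on the deposited table, 1 with the block without number 2 and 2 with array weights, whose estimation stopped before it converged, and 0 otherwise.

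The difference in response of dre-miR-181b minus dre-miR-181a was -1.37 with plain subtraction, -0.80 on the deposited table, 0.21 with the block without number 2, 0.26 on the renormalized 7 arrays and between -0.70 and 0.29 with each array left out. That of dre-miR-181b minus dre-miR-181c was -1.97, -1.31, 0.16, 0.087 and between -1.23 and 0.14 under the same settings in that order. That of dre-miR-181a minus dre-miR-181c was -0.056 with the block without number 2 and between -0.59 and -0.15 with each array left out. The drop of dre-miR-181b on MC-RR replicate 2 was -5.19 without normalization, -5.18 with an offset of 16, -8.30 with plain subtraction and -5.64 in the deposited table. Its size near background thus depends on the background correction and the normalization. For dre-miR-181a the drop was -1.0 with quantile normalization and -2.36 without normalization. For dre-miR-181c the value was -1.15 without normalization. It was above 0 with quantile normalization (0.079), median scaling (0.11) and the deposited table (0.058), and below 0 under 13 of 16 alternatives. The cause of the other changes was not tested.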
